A study of Mus musculus with 12 samples.

Results

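Gene expression in mouse embryonic stem cells (ESCs) was compared 4 days after infection with a lentivirus carrying a short hairpin RNA against Ino80 or a non-targeting hairpin. The comparison uses 4 of the 12 arrays of a time course with days 2, 4 and 6, namely the value-table columns of day 4: 2 arrays of J1 cells with the non-targeting hairpin (shNT) and 2 with the Ino80 hairpin (shIno80), over all measured genes. J1 is an established mouse ESC line, so both groups share the cell line, the infection and the harvest at 96 hours, and differ in the hairpin. The line was kept in ESGRO medium and moved to M15 medium for the infection. The series text calls the procedure an infection and gives the arrays of a group as biological replicates, while the sample descriptions speak of a transfection. Only 1 hairpin against Ino80 is named, and nothing says how the cultures were separated. The p-values therefore cover only how far arrays of the same group lay apart, which may be technical. That spread was pooled over all 12 arrays, so standard errors and p-values of day 4 also carry the spread of days 2 and 6.

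The deposited records disagree on which array belongs to which sample. For 6 of the 12 arrays, 2 of them at day 4, the scanner file is attached to the opposite group from the value-table column that holds the same intensities. Groups were taken from the value table. At day 4, its groups gave correlations across probes of 0.9941 between the shNT arrays and 0.9935 between the shIno80 arrays, against 0.9568 to 0.9623 between groups. This choice was known to give a lower Ino80 signal in the shIno80 arrays, so that lower signal does not check the labels independently. The 4 arrays lay on 1 slide, and under the value table shNT took positions 1 and 3 and shIno80 positions 2 and 4, so the hairpin and the position on the slide cannot be told apart.

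INO80 is a large chromatin remodelling complex built around the ATPase Ino80, which slides nucleosomes and is found near the start sites of active genes. ESCs keep an undifferentiated state through a circuit of transcription factors that includes Pou5f1, Sox2 and Nanog, and loss of these factors opens routes into trophoblast, primitive endoderm or the germ layers. The series title places INO80 in this circuit, and day 4 is the middle of the time course.

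Values are log2 signals relative to the 75th percentile of the same array, called relative log2 signals below, and differences are shIno80 minus shNT on that scale. On the 4 arrays, 66.43% to 69.68% of spots were well above background, 0 to 1 spots were saturated, and the array's 75th percentile ranged from 1198 to 1283 intensity units. Of 19183 genes tested, 4020 (21%) rose and 4088 (21.3%) fell at an adjusted p below 0.05 in a limma fit. The median difference over all genes was -0.05. With arrays scaled to their median instead, it was -0.195 and 39.2% of the changed genes were higher, against 49.6% here. Changes of at least 2-fold numbered 2060 rises and 1364 falls, and changes of at least 8-fold numbered 163 rises and 70 falls. The 2-fold counts were 1436 and 858 with the value table's values and 1316 and 942 with normexp and capped local background. With groups taken from the scanner file attachments no gene passed in either direction in the limma fit, and 166 genes had an unadjusted p below 0.05. With normexp background correction 843 rose and 855 fell.

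**Figure D1:**
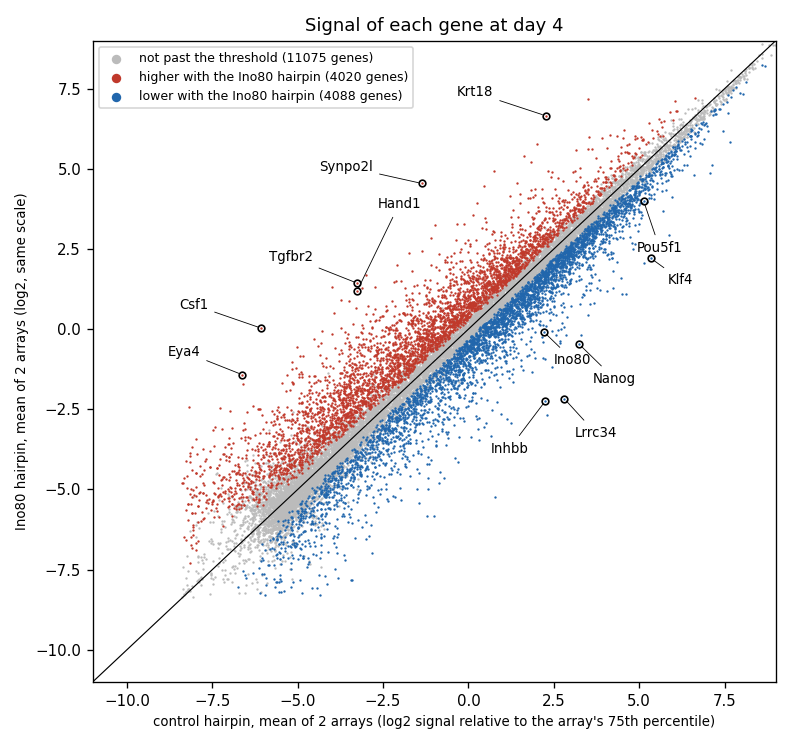
Each point is 1 of 19183 genes, with the mean of the 2 shNT arrays on the x axis and the mean of the 2 shIno80 arrays on the y axis, both as log2 signal relative to the array's 75th percentile. The 4020 red genes rose and the 4088 blue genes fell, and circles mark 12 genes described in the text, among them Krt18 and Csf1 above the diagonal and Nanog and Ino80 below it.

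Ino80 itself had relative log2 signals of 2.26 and 2.16 on the shNT arrays and -0.29 and 0.12 on the shIno80 arrays. The groups did not overlap, and the difference was -2.30 ± 0.17 (SE), which is 4.91-fold lower (adjusted p = 2.54e-05). The other Ino80 probes gave 6.02-fold and 6.32-fold lower signals. Among 10 measured subunits of INO80 that SRCAP and TIP60 lack, Ino80 included, 1 rose and 2 fell. These shares of 10% and 20% were not above the 21% and 21.3% of all genes. Nfrkb, a structural subunit, also fell (-0.56 ± 0.12, adjusted p = 0.00486), Uchl5, a deubiquitinase that is also bound by the proteasome, rose (0.52 ± 0.17), and 7 did not pass. The rise of Uchl5 did not pass without any 1 of the 4 arrays, and 4 of the 10 fell with median scaling. Of 18 subunits of the related SRCAP and TIP60 complexes and subunits that these share with INO80, 9 fell and none rose in the limma fit. Falling members included Ruvbl2, an AAA+ ATPase shared by these complexes (-0.66 ± 0.09), Actl6a, an actin-related subunit (-0.76 ± 0.12), and Znhit1, a zinc finger subunit of SRCAP (-0.83 ± 0.09). Brd8, a bromodomain subunit of TIP60, also fell (-0.86 ± 0.12). The other Brd8 probes gave -1.29, which passed, and -0.23 and -0.37, which did not. The gene list medians were -0.24 and -0.36, against -0.05 for all genes.

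The pluripotency circuit was lower almost throughout. Of 16 measured pluripotency transcription factors 15 fell and none rose, with a median difference of -1.85, and over the alternative settings other than plain normexp and the file attachments 14 to 15 fell. Klf5 was the member that did not pass (-0.12), and it is named after its value was seen. Nanog, a homeodomain factor that sustains self-renewal, read 3.31 and 3.17 on the shNT arrays and -0.14 and -0.79 on the shIno80 arrays, 13.0-fold lower (difference -3.71 ± 0.30, adjusted p = 4.23e-05). Klf4, a Krüppel-like factor used in reprogramming, read 5.16 and 5.53 against 2.34 and 2.08 (-3.14 ± 0.16, adjusted p = 7.77e-06). Nr0b1, an orphan nuclear receptor of the circuit, read 4.97 and 5.29 against 2.02 and 2.10 (-3.07 ± 0.30). In each of these genes both shIno80 arrays lay below both shNT arrays.

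The falls of Pou5f1 and Sox2 were smaller. Pou5f1, the POU factor at the centre of the circuit, read 5.31 and 4.95 on the shNT arrays and 4.17 and 3.83 on the shIno80 arrays (-1.13 ± 0.17, 2.19-fold lower, adjusted p = 0.000962). Sox2, its partner on DNA, read 3.90 and 3.95 against 2.79 and 2.63 (-1.21 ± 0.11, 2.32-fold lower, adjusted p = 7.96e-05). Neither pair of groups overlapped, and both transcripts were still well above background on the shIno80 arrays. Genes that passed were selected for a difference, so separate groups of 2 arrays add no support to a call here or elsewhere. Tbx3, a T-box factor that supports self-renewal, fell by 3.06 on its brightest probe, while its other probe gave a difference of 0.01 that did not pass.

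Among 21 other ESC markers 16 fell and 1 rose, with a median of -1.43. Jam2, a junction adhesion molecule, fell by 3.40 (10.5-fold), Spp1, the secreted phosphoprotein osteopontin, by 2.94, Lefty2, a Nodal antagonist, by 2.88, and Tcl1, an activator of Akt, by 2.67. Spp1 read 5.80 and 5.96 on the shNT arrays and 2.96 and 2.92 on the shIno80 arrays. The member that rose was Dppa3, which protects maternal methylation in the zygote (1.70 ± 0.27, adjusted p = 0.00135). The summed signal of 9 ESC markers fixed for the check of the cell type was 648 and 640 times the 75th percentile on the shNT arrays and 408 and 369 times on the shIno80 arrays. All 9 were well above background on all 4 arrays, so the defining markers of the labelled cell type were present in both groups. In RNA from whole cultures, fewer cells of a type and less RNA per cell cannot be told apart.

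**Figure D2:**
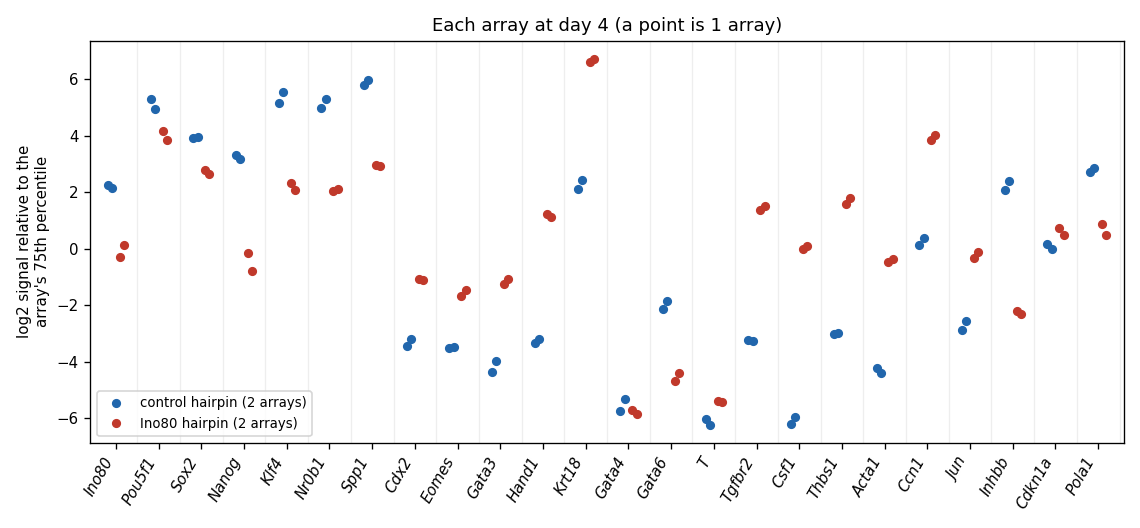
Points show single arrays at day 4 for 24 genes, with blue for the 2 shNT arrays and red for the 2 shIno80 arrays, as log2 signal relative to the array's 75th percentile. The shIno80 points lie below the shNT points for Ino80, Pou5f1, Sox2, Nanog, Klf4, Nr0b1 and Spp1 and above them for Cdx2, Hand1, Krt18, Csf1, Thbs1 and Ccn1, and the groups overlap for Gata4.

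Trophoblast genes rose together. Of 17 measured trophoblast transcription factors 14 rose and 1 fell, with a median of 1.69, beside 21% and 21.3% of all genes. Hand1, a basic helix-loop-helix factor of trophoblast giant cells, read -3.33 and -3.19 on the shNT arrays and 1.23 and 1.13 on the shIno80 arrays, 21.8-fold higher (4.44 ± 0.13, adjusted p = 3.22e-06). Cdx2, the caudal homeobox factor that specifies trophectoderm, read -3.43 and -3.21 against -1.08 and -1.10 (2.23 ± 0.51, adjusted p = 0.00783). Gata3, a zinc finger factor of the same lineage, read -4.35 and -3.98 against -1.26 and -1.08 (3.0 ± 0.32, adjusted p = 0.000158). Both shIno80 arrays were above both shNT arrays in all of these. Esx1, an X-linked placental homeobox factor, rose by 2.88 ± 0.11, Cited1, a transcriptional coregulator of the placenta, by 2.42 ± 0.13, and Eomes, a T-box factor of trophoblast stem cells, by 1.91 ± 0.14. Gata2 rose by 0.83 (0.56 on a second probe, which did not pass), a call that was lost without shNT replicate 1 or shIno80 replicate 2. The member that fell was Sox15, an SRY-box factor (-1.34 ± 0.18).

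Of 18 measured products of trophoblast and simple epithelium 13 rose and 1 fell (median 2.37). Krt18, the type I keratin of simple epithelia, read 2.10 and 2.42 on the shNT arrays and 6.6 and 6.71 on the shIno80 arrays (21.1-fold higher, adjusted p = 5.06e-06), and its partner Krt8 read 1.44 and 1.83 against 5.35 and 5.48 (13.7-fold). Krt7, another simple epithelial keratin, was 13.9-fold higher. Plac1, a placenta-enriched membrane protein, was not well above background on the shNT arrays and was at least 13.0-fold higher on the shIno80 arrays. Slco2a1, a prostaglandin transporter, was 22.2-fold higher on the probe used and 1.88-fold on its other probe. The member that fell was the homeobox gene Rhox5 (-1.84 ± 0.38), while its relatives Rhox6 (2.31) and Rhox9 (1.74) rose. A bound such as that of Plac1 sets the mean of the bright group against, on each dim array, the higher of the gene's own signal and the lowest signal well above background.

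Other early lineages were mixed. Of 22 primitive endoderm and endoderm genes 9 rose and 5 fell (40.9% and 22.7%, beside 21% and 21.3% of all genes). The basement membrane collagens Col4a1 (2.31 ± 0.46) and Col4a2 (2.48 ± 0.44) rose, and Afp, the fetal serum protein, was at least 1.63-fold higher. The GATA factors that define the lineage did not rise. Gata6 read -2.13 and -1.85 on the shNT arrays and -4.66 and -4.39 on the shIno80 arrays (-2.53 ± 0.30, adjusted p = 0.000298, and 2.0-fold lower on its other probe), and Gata4 read -5.75 and -5.33 against -5.71 and -5.83 with 1 array of each group well above background (adjusted p = 0.387). The groups were apart for Gata6 and overlapped for Gata4.

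Of 15 primitive streak and mesoderm genes 3 rose and 5 fell (20% and 33.3%), and 8 fell with quantile normalization. Wnt3, a ligand of streak formation, rose by 1.91 ± 0.19, and Evx1, an even-skipped homeobox factor of the streak, fell by 2.15 ± 0.35. Brachyury (T) was above background only on the shIno80 arrays, with a bound of 1.55-fold and an adjusted p of 0.0402 that did not hold without any 1 of the 4 arrays, with median scaling or with the value table's values. Of 12 genes of the primed epiblast 2 rose and 7 fell. Fgf5, its usual marker, read -2.69 and -2.91 on the shNT arrays and -1.5 and -1.16 on the shIno80 arrays (1.47 ± 0.28, adjusted p = 0.00344), and Pou3f1, a POU factor, rose by 1.57 ± 0.31. Fgf15, a secreted FGF, fell by 3.09 ± 0.21 and Foxd3, a forkhead factor, by 1.87 ± 0.16.

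Of 15 neural ectoderm genes 4 rose and 5 fell (26.7% and 33.3%, beside 21% and 21.3% of all genes). Without the filter on dim probes 2 rose, and fewer rose without any 1 of the 4 arrays. Nes, an intermediate filament protein of neural progenitors and other cells, rose by 2.72 ± 0.18, whereas Pax6, a paired-box factor of the eye and brain, read -1.74 and -1.87 against -3.97 and -3.98 (-2.17 ± 0.37, adjusted p = 0.00176). Of 26 measured Hox genes 7 rose (26.9%, beside 21% of all genes) and none fell in the limma fit. Hoxd8 was at least 1.99-fold higher. Hoxd9 was counted as a rise although no day 4 array was well above background. Counting only genes above background on all 4 arrays left 3 risers, and 3 Hox genes fell with the 4 arrays fitted alone.

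Markers of cells that a culture could hold beside ESCs were measured too. Of 16 fibroblast markers 14 were measured, and 9 rose and 2 fell (median 1.24, or 0.60 with the value table's values and 0.56 with capped normexp). Their summed signal was 4.95 and 4.88 times the 75th percentile on the shNT arrays and 7.42 and 7.92 times on the shIno80 arrays, and Postn and Fap were not measured above background in any group. S100a4, a calcium-binding protein, rose by 3.62 ± 0.25, the proteoglycan Dcn by 3.42 ± 0.34 and the collagen Col1a1 by 2.41 ± 0.13, while Thy1, a surface glycoprotein of fibroblasts, fell by 1.24 ± 0.16. The 6 measured of 9 blood and endothelial markers summed to 2.55 and 2.54 on the shNT arrays and 1.30 and 1.26 on the shIno80 arrays, with Adgre1, Cdh5 and Tie1 not measured. The part of fibroblasts or other cells in the changes of collagen, matrix and contractile genes was not tested. For comparison, the summed signal of 10 measured trophoblast markers was 7.94 and 9.90 on the shNT arrays and 147 and 159 on the shIno80 arrays. Elf5 was not measured. Most of that sum came from the simple epithelial keratins Krt18 and Krt8 on every array. Transcription factors added little to it on the shIno80 arrays, where Cdx2 had relative log2 signals of -1.08 and -1.10 and Eomes of -1.68 and -1.47.

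**Figure D3:**
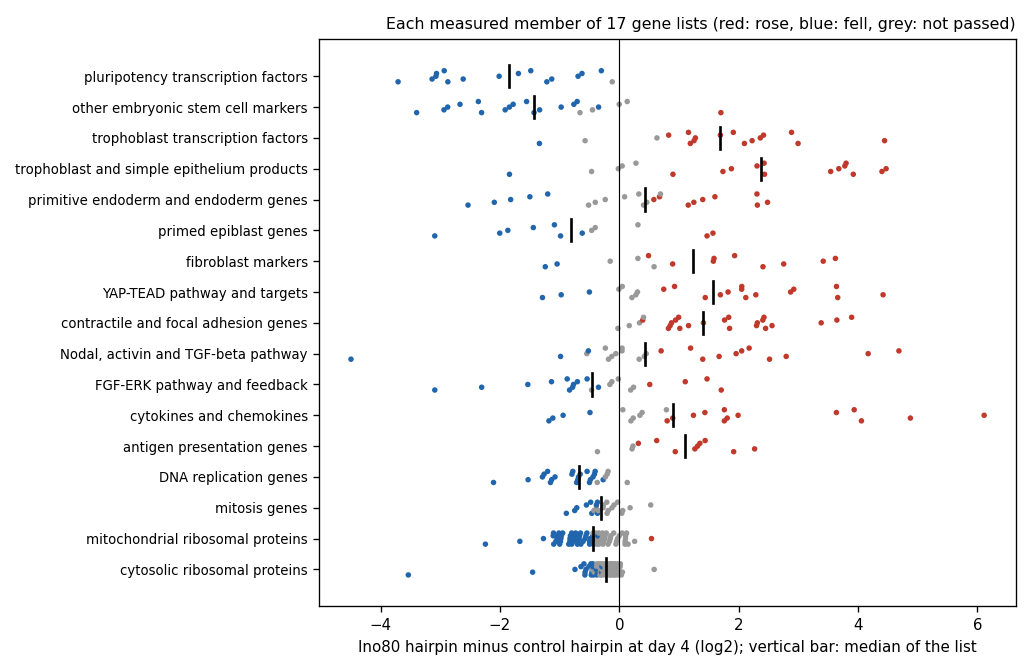
Each point is a measured member of 1 of 17 gene lists, placed at its log2 difference (shIno80 minus shNT, day 4), in red where it rose, blue where it fell and grey where it did not pass, with a black bar at the list's median. Pluripotency factors lie left of 0 (median -1.85), trophoblast factors (1.69) and contractile genes (1.41) mostly right of it, and cytosolic ribosomal proteins close to it (-0.23).

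Genes of the actin cytoskeleton rose almost without exception. Of 25 contractile and focal adhesion genes 21 rose and none fell in the limma fit (median 1.41), and over the alternative settings other than plain normexp and the file attachments 20 to 22 rose. Acta1, skeletal muscle actin, read -4.22 and -4.4 on the shNT arrays and -0.47 and -0.37 on the shIno80 arrays, 14.8-fold higher (3.89 ± 0.35, adjusted p = 7.18e-05). Tagln, an actin-bundling protein of smooth muscle, read 1.87 and 1.81 against 5.16 and 5.28 (10.4-fold higher), and Cnn1, calponin, rose by 2.56 ± 0.24. The small heat shock protein Cryab, listed with them, read -2.37 and -1.99 against 1.51 and 1.42. No group overlapped another in these genes.

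The YAP-TEAD pathway moved in the same direction. YAP and TAZ are coactivators that bind the TEAD factors on DNA and respond to cell tension and contact. Of 22 measured pathway genes and targets 14 rose and 3 fell (median 1.57, or 0.82 with the value table's values and 0.77 with capped normexp). Among targets, Ccn1, a matricellular protein, read 0.14 and 0.39 on the shNT arrays and 3.83 and 4.02 on the shIno80 arrays, 12.6-fold higher (3.66 ± 0.15, adjusted p = 4.5e-06). Ankrd1, a nuclear ankyrin-repeat protein, was well above background only on the shIno80 arrays, at least 8.87-fold higher. Among partners and kinases, Vgll1, a TEAD cofactor, was at least 5.34-fold higher, and Lats2, the kinase that restrains YAP, rose by 2.92 ± 0.21. Tead2, the TEAD factor abundant in ESCs, fell by 1.29 ± 0.20, and Nf2, an upstream regulator of the kinases, by 0.97 ± 0.13.

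The windows before the start sites of these genes were searched for short motifs, as a description without a test. RefSeq windows (GRCm38.p6, 250 bases before to 50 after each start) were found for 19 of the 22 YAP-TEAD genes, and 15 of their 24 windows held the TEAD letters GGAATG on either strand (62.5%), beside 14.7% of all 32851 windows. Of the 25 windows found for 21 of the contractile genes, 4 held a CArG box, the site of serum response factor (16%, beside 1.63% of all windows). The TEAD letters were in 11 of these 25 windows (44%). The YAP-TEAD list includes known targets, which may be known through such sites, so its share gives no independent support. The same may hold for contractile genes and the CArG box. The bases before the start are shown for the 3 TEAD-letter genes and the pair of CArG-box genes with the highest differences, since these show how close the letters lie to the start. Capitals mark the motif, each sequence runs 5′ to 3′ on the gene's strand up to the base before the start. In Acta1 and Myl9 the capitals mark the CArG box alone, and the Acta1 sequence also holds the TEAD letters, left in lower case, after that box without overlap.
Vgll1, chrX:57087856-57088105, plus strand: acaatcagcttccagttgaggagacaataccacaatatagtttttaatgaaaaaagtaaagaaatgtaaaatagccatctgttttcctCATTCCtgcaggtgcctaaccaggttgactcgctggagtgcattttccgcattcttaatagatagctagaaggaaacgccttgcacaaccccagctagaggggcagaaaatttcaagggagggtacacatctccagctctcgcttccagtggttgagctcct
Ccn1, chr3:145649986-145650235, minus strand: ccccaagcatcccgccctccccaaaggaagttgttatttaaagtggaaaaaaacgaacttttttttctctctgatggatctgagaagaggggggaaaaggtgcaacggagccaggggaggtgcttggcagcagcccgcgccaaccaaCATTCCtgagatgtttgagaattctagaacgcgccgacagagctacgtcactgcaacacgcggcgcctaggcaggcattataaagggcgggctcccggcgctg
Ankrd1, chr19:36119845-36120094, minus strand: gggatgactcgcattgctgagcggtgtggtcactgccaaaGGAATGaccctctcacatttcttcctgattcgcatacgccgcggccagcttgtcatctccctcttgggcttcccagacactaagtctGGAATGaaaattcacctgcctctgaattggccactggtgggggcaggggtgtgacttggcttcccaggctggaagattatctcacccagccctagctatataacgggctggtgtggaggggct
Acta1, chr8:123894776-123895025, minus strand: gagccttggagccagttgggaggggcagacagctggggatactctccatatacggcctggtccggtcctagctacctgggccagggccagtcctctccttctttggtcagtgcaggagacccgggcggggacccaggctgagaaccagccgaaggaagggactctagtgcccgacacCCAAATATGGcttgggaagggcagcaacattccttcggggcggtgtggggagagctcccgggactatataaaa
Myl9, chr2:156775214-156775463, plus strand: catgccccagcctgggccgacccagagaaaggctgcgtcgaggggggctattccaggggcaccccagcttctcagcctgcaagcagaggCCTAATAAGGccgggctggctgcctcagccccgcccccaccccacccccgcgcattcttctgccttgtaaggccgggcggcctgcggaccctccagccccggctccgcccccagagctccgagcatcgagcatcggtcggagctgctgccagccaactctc

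Counted from the start, with -1 as the base before it, the TEAD letters began at -162 in Vgll1, at -103 in Ccn1, and at -210 and -123 in Ankrd1. The CArG box began at -73 in Acta1 and at -161 in Myl9, a myosin light chain that was named here for its sequence and rose by 2.42. Over all measured genes the shares of the TEAD letters and of the CArG box differed little between calls. The TEAD letters were in 13.1% of windows of genes that rose, 12.1% of genes that fell and 12.7% of genes that did not pass, and a CArG box in 1.49%, 1.45% and 1.32%. The AP-1 letters TGACTCA or TGAGTCA were in 4.8%, 3.42% and 3.9%.

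Several signalling pathways changed at the level of ligands and receptors. Of 24 genes of the Nodal, activin and TGF-beta pathway 11 rose and 3 fell. Among ligands, Inhba, the activin A subunit, was at least 3.95-fold higher, and Inhbb, the activin B subunit, read 2.09 and 2.40 on the shNT arrays and -2.19 and -2.30 on the shIno80 arrays (22.5-fold lower, adjusted p = 7.99e-06, and 2.19-fold on its other probe). Among receptors, Tgfbr2, the type II receptor for TGF-beta, read -3.24 and -3.26 against 1.36 and 1.5 (25.7-fold higher, adjusted p = 4.35e-06, and 3.07-fold on its other probe). Of 19 genes of the BMP pathway 6 rose and 2 fell (31.6% and 10.5%, beside 21% and 21.3% of all genes). Bmp8b, a ligand, rose by 2.91 ± 0.14, Id2, an inhibitor of helix-loop-helix factors, by 1.79 ± 0.28, and the receptor Bmpr2 by 1.11 ± 0.19, whereas the ligand Bmp4 fell by 1.16 ± 0.15.

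Of 31 Wnt pathway genes 16 rose and 7 fell. The ligands Wnt2 and Wnt7a were at least 5.65-fold and 6.87-fold higher, and Wnt9a rose by 3.11 ± 0.15, with a second probe that did not pass (0.66). Fzd1, a receptor, rose by 2.84 ± 0.29. The ligand Wnt5a was at least 2.81-fold lower, and Sfrp1, a secreted inhibitor, fell by 2.50 ± 0.26.

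Of 21 measured FGF-ERK genes 4 rose and 11 fell. The ligands Fgf15 and Fgf17 fell by 3.09 and 2.31, and Egr1, an immediate target of ERK, fell by 1.53 ± 0.18, while Dusp4, a phosphatase that dampens ERK, rose by 1.71 ± 0.31. The count of falls was 5 without shNT replicate 1, 6 without shIno80 replicate 1 and 7 without shIno80 replicate 2, and 2 rose without shNT replicate 1 or shIno80 replicate 2. Of 14 LIF-STAT3 genes 4 rose and 6 fell (28.6% and 42.9%, beside 21% and 21.3% of all genes). Socs3 and Socs2, feedback inhibitors induced by STAT3, fell by 1.27 ± 0.10 and 1.79 ± 0.18. Osmr, a receptor of the gp130 family, was at least 4.31-fold higher, and the kinase Jak2 rose by 2.10 ± 0.14.

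Of 16 immediate early and AP-1 genes 10 rose and 4 fell. Jun, an AP-1 subunit, read -2.87 and -2.55 on the shNT arrays and -0.34 and -0.12 on the shIno80 arrays (2.48 ± 0.26, adjusted p = 0.000154), and Atf3, a stress-induced partner of it, rose by 2.39 ± 0.23. Fosl1, another AP-1 subunit, rose by 1.81 ± 0.14. Myc, a growth-promoting factor that ESCs express, fell by 0.83 on the probe used, a call that was lost without any 1 of the 4 arrays. The other Myc probes gave -0.85 and -0.86, and both passed.

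Of 23 cytokines and chemokines 13 rose and 4 fell, and 2 fell without shNT replicate 2, shIno80 replicate 1 or shIno80 replicate 2. Csf1, the macrophage colony-stimulating factor, read -6.19 and -5.97 on the shNT arrays, not well above background, and -0.02 and 0.09 on the shIno80 arrays. That is at least 68.7-fold higher, the highest bound among genes that were on in shIno80 alone. The chemokine Ccl20 was at least 19.3-fold higher, Cxcl16 rose 16.6-fold and Il33, an alarmin, 15.3-fold. Vegfc, a lymphatic growth factor, fell by 1.11 ± 0.24, and Kitl, the ligand of Kit, by 1.18 ± 0.16, beside a fall of its receptor Kit by 2.54 ± 0.34.

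Of 12 antigen presentation genes 9 rose and none fell in the limma fit (median 1.10). Tap1, a peptide transporter, rose by 1.92 ± 0.09, the immunoproteasome subunit Psmb8 by 2.27 ± 0.46, and the class I heavy chains H2-K1 and H2-D1 by 1.44 ± 0.15 and 1.35 ± 0.23. Interferon-induced genes did not share a direction, with 8 rises and 10 falls among 27 (29.6% and 37%, beside 21% and 21.3% of all genes). Gbp2, a guanylate-binding protein, rose 14.3-fold. The oligoadenylate synthetases went the other way, with Oas1d at least 8.19-fold lower and Oas1a down by 4.83 with 1 shIno80 array above background, and Tgtp1, an interferon-induced GTPase, was at least 6.13-fold lower on the probe used and 1.29-fold lower on a second probe that did not pass. The count of rises was 5 without shNT replicate 2 or shIno80 replicate 2.

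**Figure D4:**
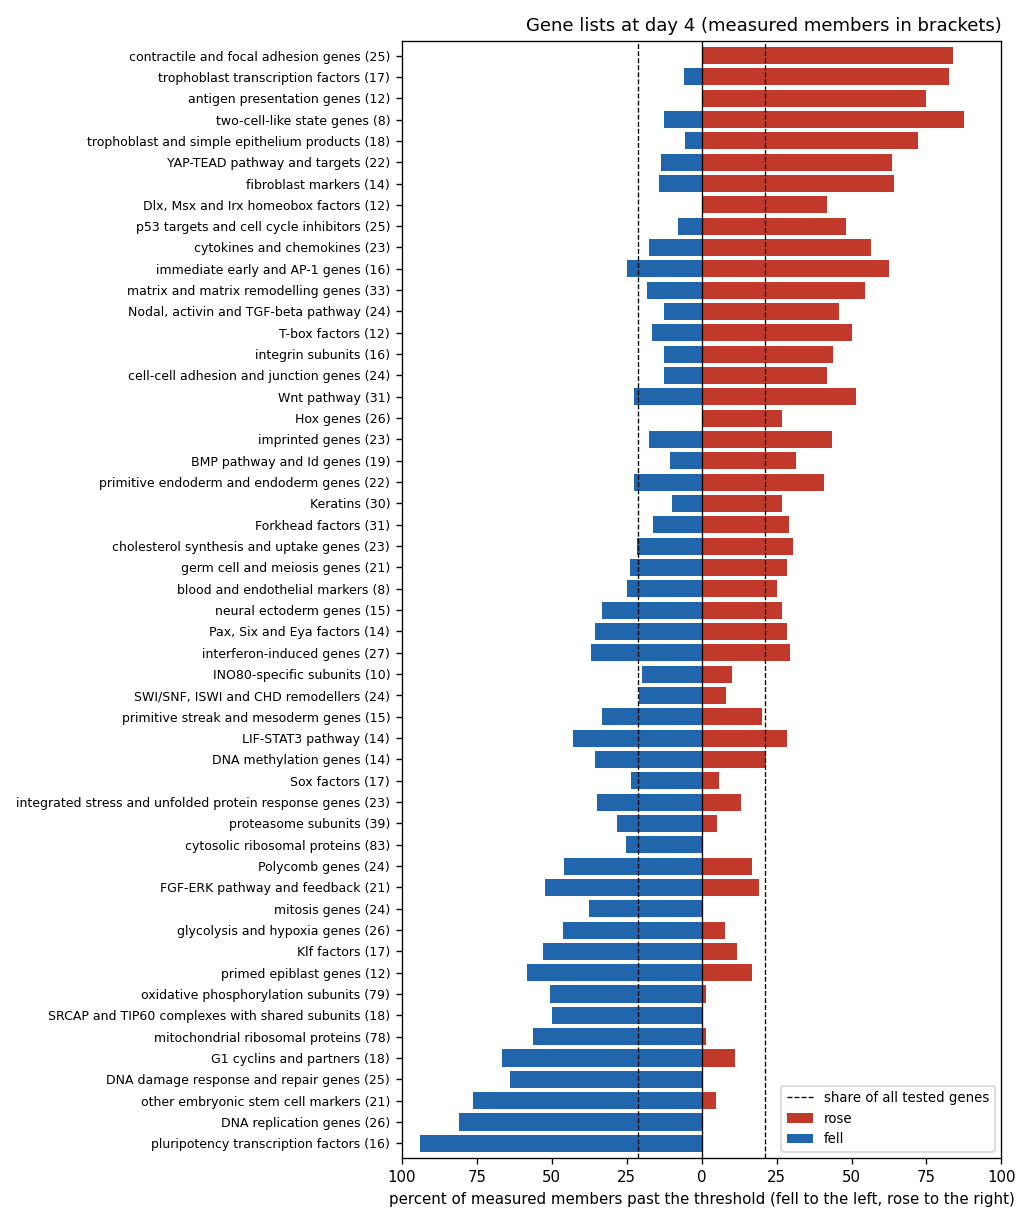
Bars give the percent of measured members that rose (right, red) or fell (left, blue) at day 4 for each gene list with at least 8 measured members, with the number measured in brackets and dashed lines at the shares over all tested genes (21% and 21.3%). Contractile genes and trophoblast factors stand at the top, and pluripotency factors and DNA replication genes at the bottom.

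Matrix and adhesion genes rose more often than they fell. Of 33 matrix genes 18 rose and 6 fell. Thbs1, the matricellular thrombospondin 1, read -3.02 and -2.99 on the shNT arrays and 1.57 and 1.81 on the shIno80 arrays, 25.9-fold higher (adjusted p = 5.06e-06), with its other probes at 13.2-fold and 22.0-fold. Timp2, a protease inhibitor, rose by 2.6 ± 0.24, and Plau, the urokinase protease, was at least 2.52-fold higher, while Loxl2, a collagen-modifying oxidase, fell by 1.41 ± 0.28 (a second probe at -0.71 did not pass). Of 24 cell adhesion and junction genes 10 rose and 3 fell. Dsp, the desmosomal plakin, rose by 3.63 ± 0.17, and its other probes gave 3.36 and 3.46, which passed, and 1.75, which did not. The tight junction proteins Cldn7 and Ocln rose by 2.70 ± 0.22 and 2.21 ± 0.16, with a second Ocln probe at 1.35 that did not pass. Zeb1, a repressor of epithelial genes, fell by 3.0 ± 0.21. Of 16 integrin subunits 7 rose and 2 fell, with Itga3 up by 2.72 ± 0.15, Itgav by 1.81 ± 0.19 and Itgb7 down by 2.58 ± 0.10.

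Cell cycle genes were mostly lower, by modest amounts. Of 26 DNA replication genes 21 fell and none rose in the limma fit, with a median of -0.67, and 15 to 21 fell over the alternative settings other than plain normexp and the file attachments. Pola1, the catalytic subunit of the primase-polymerase, read 2.71 and 2.87 on the shNT arrays and 0.86 and 0.49 on the shIno80 arrays (-2.11 ± 0.16, adjusted p = 3.2e-05). Mcm10, a replication initiation factor, fell by 1.53 ± 0.13, Gins2, a part of the replicative helicase, by 1.29 ± 0.11, and Cdc6, a loader of the helicase, by 1.26 ± 0.13. Of 24 mitosis genes 9 fell and none rose, each by less than 1 on the log2 scale, with Nusap1, a spindle protein, down by 0.89 ± 0.13 (a second probe at -0.33 did not pass). That count was 4 without shNT replicate 1 or shIno80 replicate 2 and 5 with quantile normalization. Of 25 DNA damage response and repair genes 16 fell and none rose (median -0.64), among them Xrcc5, the Ku80 end-joining subunit (-1.22 ± 0.10), and Fancd2, a crosslink repair protein (-1.19 ± 0.16).

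Of 18 G1 cyclins and partners 12 fell and 2 rose. Ccne1, cyclin E1, read 6.36 and 6.43 on the shNT arrays and 5.17 and 5.06 on the shIno80 arrays (-1.28 ± 0.16), and Ccnd1, cyclin D1, fell by 1.12 ± 0.17. The count of falls was 7 without shNT replicate 2 or shIno80 replicate 2. Of 25 p53 targets and cell cycle inhibitors 12 rose and 2 fell. Cdkn2a and Cdkn2b, inhibitors of the cyclin D kinases, rose by 2.01 ± 0.13 and 1.81 ± 0.14, and Gadd45b, a stress-induced protein, by 2.10 ± 0.17. Cdkn1a, the p21 inhibitor and a p53 target, read 0.16 and -0.01 against 0.74 and 0.49 (0.54 ± 0.17, adjusted p = 0.0295). The groups were apart, but the call was lost with median scaling, without a filter on dim probes, and without shNT replicate 1, shNT replicate 2 or shIno80 replicate 1. Bax, a proapoptotic p53 target, fell by 1.11 ± 0.13. The count of rises was 7 without shNT replicate 1.

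Genes of the mitochondria fell broadly. Of 78 mitochondrial ribosomal proteins 44 fell and 1 rose (median -0.44), and of 79 oxidative phosphorylation subunits 40 fell and 1 rose (median -0.35). Mrps27, a small-subunit protein, read 1.54 and 1.24 on the shNT arrays and -0.80 and -0.91 on the shIno80 arrays (4.73-fold lower, adjusted p = 2.24e-05), and Mrps12 read 4.49 and 4.54 against 2.96 and 2.73 (3.17-fold lower). Ndufa2 and Ndufb4, subunits of complex I, fell by 1.36 ± 0.14 and 1.22 ± 0.10. The counts of falls without 1 array ranged from 30 to 38 for the ribosomal proteins and from 23 (without shNT replicate 2) and 25 (without shIno80 replicate 2) to 31 for the respiratory subunits. Rises depended on the scaling, with 5 ribosomal proteins and 8 respiratory subunits higher under quantile normalization. Of 83 cytosolic ribosomal proteins 21 fell (25.3%, near the 21.3% of all genes) and none rose in the limma fit (median -0.23), and 33 fell with median scaling, 7 without shIno80 replicate 2 and 8 without shNT replicate 2. Rpl39l, a paralogue of Rpl39 active in ESCs and testis, had the largest fall among them, with 4.60 and 4.66 against 1.14 and 1.05 (11.6-fold lower). Of 26 glycolysis and hypoxia genes 12 fell and 2 rose, with the phosphofructokinase Pfkp down by 1.72 ± 0.17. That count was 7 without shNT replicate 1 or shIno80 replicate 2.

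YY1 is a zinc finger protein that binds DNA and copurifies with INO80. Its core letters AAGATGG, on either strand, were in 9.71% of 3511 windows of genes that fell, 6.5% of 8357 windows of genes that did not pass and 3.88% of 3816 windows of genes that rose, beside 6.34% of all windows. The letters were in 17.3% of 75 windows of mitochondrial ribosomal proteins, 15.8% of 76 windows of cytosolic ribosomal proteins and 15.1% of 73 windows of oxidative phosphorylation subunits. In the windows of genes that fell, 166 of 360 matches lay within the 50 bases after the start, against 34 of 154 in genes that rose. These are descriptions without a test, and what promoter classes share with the letters was not tested. The sites of the 3 mitochondrial ribosomal protein genes with the largest falls among those that hold the letters are shown, with the letters in capitals, to show where the letters lie.
Mrps27, chr13:99344789-99344818, plus strand: tggtgcgctccAAGATGGcggctcccatgg
Mrps12, chr7:28742001-28742030, minus strand: catggacgcagCCATCTTggagtggaaaca
Mrpl35, chr6:71823743-71823772, minus strand: aggcaggctgcAAGATGGcggcttccatct

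The letters began at base 15 after the start in Mrps27, counting the start as 1, at base 24 in Mrpl35 and at -198 in Mrps12. Mrpl35, a large-subunit protein named here for its sequence, fell by 1.06.

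Of 23 genes of cholesterol synthesis and uptake 7 rose and 5 fell (30.4% and 21.7%, beside 21% and 21.3% of all genes). Abca1, which exports cholesterol, fell by 1.16 ± 0.19. The counts were 3 and 3 without any 1 of the 4 arrays. Of 23 genes of the integrated stress and unfolded protein responses 3 rose and 8 fell, with the transcription factor Xbp1 down by 1.41 ± 0.17 and Vldlr, a lipoprotein receptor, up by 1.80 ± 0.29 (a second probe at 1.47 did not pass). That count of falls was 5 without shNT replicate 1 or shIno80 replicate 2. Of 39 proteasome subunits 2 rose and 11 fell (28.2%, beside 21.3% of all genes), and fewer fell without any 1 of the 4 arrays.

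Chromatin genes beyond INO80 were split. Of 24 Polycomb genes 4 rose and 11 fell. Mtf2, a partner of PRC2, fell by 1.09 ± 0.14 and Rnf2, the E3 ligase of PRC1, by 0.92 ± 0.13, while Pcgf5, a variant PRC1 subunit, rose by 1.72 ± 0.14. The count of falls was 6 without shNT replicate 1 or shIno80 replicate 2 and 7 without either other array. Of 14 DNA methylation genes 3 rose and 5 fell (21.4% and 35.7%, beside 21% and 21.3% of all genes). The demethylating oxidases Tet1 and Tet2 fell by 1.45 ± 0.15 and 2.36 ± 0.26 and the methyltransferase Dnmt3a by 1.44 ± 0.20. The other Dnmt3a probes gave -1.26, which passed, and 0.41, which did not. Tet3 rose by 1.44 on the probe used, with a difference of -0.09 on its other probe. Of 24 genes of other remodelling complexes 2 rose, 5 fell and 17 did not pass. These shares of 8.3% and 20.8% were not above the 21% and 21.3% of all genes. Smarcd3, a SWI/SNF subunit of heart and neurons, fell by 2.59 ± 0.20 while the ATPase Smarca2 rose by 1.42 ± 0.14.

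Of 8 measured genes of the 2-cell-like state, a rare state of ESCs that resembles the early embryo, 7 rose and 1 fell (median 2.59). The fall was lost with the 4 arrays fitted alone and with the value table's values. Above background on all 4 arrays were 5 genes, all of which rose. Zfp352 read -3.42 and -3.14 on the shNT arrays and -0.21 and -0.26 on the shIno80 arrays (8.25-fold higher, adjusted p = 0.00017), and Tcstv1 rose by 2.66 ± 0.50. The Usp17l, Tcstv and Zscan4 genes belong to families of near-identical copies whose signals may be shared, and the 7 rises are not independent of each other. Of 23 imprinted genes 10 rose and 4 fell, with Sgce and Igf2, both expressed from the paternal allele, up by 2.61 ± 0.11 and 1.90 ± 0.32 and Phlda2, a maternally expressed brake on placental growth, down by 1.04 ± 0.18. The count of rises was 6 without shIno80 replicate 1.

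Of 21 germ cell and meiosis genes 6 rose and 5 fell (28.6% and 23.8%, beside 21% and 21.3% of all genes). The piRNA pathway genes Tdrd1 and Ddx4 rose by 2.15 ± 0.24 and 1.95 ± 0.25, and Nanos3, an RNA-binding protein of germ cells, fell by 1.84 ± 0.20.

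Among transcription factor families, 9 of 31 forkhead genes rose and 5 fell (29% and 16.1%, beside 21% and 21.3% of all genes). Foxf2, a mesenchymal factor, was at least 4.57-fold higher. Of 17 Klf genes 9 fell and 2 rose, with Klf14 at least 12.1-fold higher and Klf6 up by 1.55 ± 0.19 beside the falls of Klf4 and Klf3 (-1.48 ± 0.15, with a second probe at -0.38 that did not pass). Of 14 genes of the Pax, Eya and Six4 families 4 rose and 5 fell (28.6% and 35.7%), and 1 rise was left among genes above background on all 4 arrays. Pax1, a paired-box factor of sclerotome, read -4.28 and -3.74 on the shNT arrays and 1.21 and 1.43 on the shIno80 arrays (40.1-fold higher, adjusted p = 0.000163, with a second probe at 4.79-fold that did not pass), and Eya4 was at least 25.4-fold higher, whereas Eya1 and Six4 fell by 2.24 ± 0.15 and 2.42 ± 0.16.

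Among genes with a name that were well above background on all 4 arrays, the largest rise was Synpo2l, an actin-associated protein of heart and skeletal muscle. It read -1.68 and -1.06 on the shNT arrays and 4.4 and 4.69 on the shIno80 arrays (60.4-fold higher, 5.92 ± 0.33, adjusted p = 1.03e-05), and its second probe gave a smaller rise of 3.46. Further large rises were Slamf9, a receptor of the SLAM family (21.2-fold), Stmn4, a microtubule regulator (18.8-fold), Anxa3, a calcium-dependent membrane-binding protein (18.4-fold), and Fhl2, a LIM-domain cofactor (17.7-fold). Nipal2, Sh3rf2 and Mab21l4 were 18.7-fold, 18.5-fold and 17.7-fold higher. The largest fall was Lrrc34, a leucine-rich repeat protein expressed in pluripotent cells, at 2.67 and 2.94 against -2.05 and -2.28 (31.2-fold lower, adjusted p = 5.58e-06). Further large falls were Rassf9 (24.6-fold), Accsl (17.7-fold) and Ntn1, the guidance cue netrin 1 (16.1-fold, and 6.06-fold on its other probe). Slc11a1, a metal transporter (15.2-fold), and Slc38a5, a glutamine transporter (14.6-fold), came next. Gli2, a hedgehog effector (13.8-fold, with a second probe at -0.58 that did not pass), and Aqp3, an aquaglyceroporin (12.3-fold), also fell. All shIno80 arrays lay on the same side of all shNT arrays in each of these genes. They were chosen as the largest changes, so that separation adds no support.

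In all, 181 named genes that rose were well above background on both shIno80 arrays and on neither shNT array, and 95 that fell showed the reverse. Beside Csf1, Eya4, Ccl20, Plac1, Klf14 and Ankrd1, the rises with the highest bounds were Mal, a membrane raft protein of epithelia (at least 12.5-fold), Il24, a cytokine of the interleukin-10 family (12.2-fold), Lhx9, a LIM homeobox factor of the gonad (11.6-fold), and Adra2c, an adrenergic receptor (8.22-fold). Beside Oas1d and Tgtp1, the falls were Myo18b, a muscle myosin (8.8-fold, with a second probe at -0.87 that did not pass), Srgn, a proteoglycan of secretory granules (6.54-fold), Gad1, which makes GABA (5.55-fold), Pgc, a pepsinogen (5.4-fold), and Hhip, a hedgehog-binding protein (4.69-fold). Where a changed gene had further probes, 2829 of 4626 (61.2%) also passed in the same direction and 52 passed in the opposite one.

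The day 4 differences were set against those of days 2 and 6, each measured against its own shNT arrays. Of the 4020 genes that rose at day 4, 928 had also risen at day 2 (23.1% of the day 4 list and 76.9% of the day 2 list) and 3069 rose at day 6 (76.3% and 76.1%). Of the 4088 that fell, 964 had fallen at day 2 (23.6% and 81%) and 3596 fell at day 6 (88% and 63.5%). The difference at day 4 differed from that at day 2 for 2940 genes (15.3%), and the difference at day 6 differed from that at day 4 for 727 (3.79%). Without any 1 of the 4 arrays these counts were 1476 to 1904 and 200 to 334, and each of the 4 arrays lowered both by over 1.5 times. Among pluripotency factors, 11 of 16 differed between days 4 and 2 and 1 between days 6 and 4. Nanog stood at -0.96, -3.71 and -2.72 on days 2, 4 and 6, and Pou5f1 at -0.32, -1.13 and -1.85. Hand1 stood at -0.18, 4.44 and 5.29. Ino80 itself stood at -1.99, -2.30 and -2.09.

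A group of 122 genes differed at day 4 from both other days in opposite directions, 90 with their highest and 32 with their lowest difference at day 4. The excess of highest genes was lost without shNT replicate 1, with 25 highest and 30 lowest, and the counts were 21 and 11 without shNT replicate 2, 36 and 14 without shIno80 replicate 1 and 43 and 12 without shIno80 replicate 2. Both tests use the same 4 arrays of day 4. Gata6 was among the lowest: its difference was -0.84 at day 2, -2.53 at day 4 and -0.13 at day 6. On the shNT arrays Gata6 read -3.97 and -3.27 at day 2, -2.13 and -1.85 at day 4, and -2.70 and -2.23 at day 6, while the shIno80 arrays of day 6 read -2.88 and -2.30 and overlapped with their controls. Dkk1, a secreted Wnt inhibitor, was at least 4.39-fold lower at day 4 and stood at 1.97 at day 6 (a second Dkk1 probe gave -0.43 at day 4 and did not pass). Hopx, a homeodomain-only cofactor, stood at -1.5, -3.44 and -1.66. Pappa2, a placental protease, was above background only on the shIno80 arrays of day 4, at -4.4 and -3.53 (at least 4.35-fold higher), and on no array of day 2 or day 6. Car4, a carbonic anhydrase, stood at 0.97, 3.13 and 1.26, and Tmeff2, a membrane protein with follistatin modules, at 1.33, 3.1 and 1.08.

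**Figure D5:**
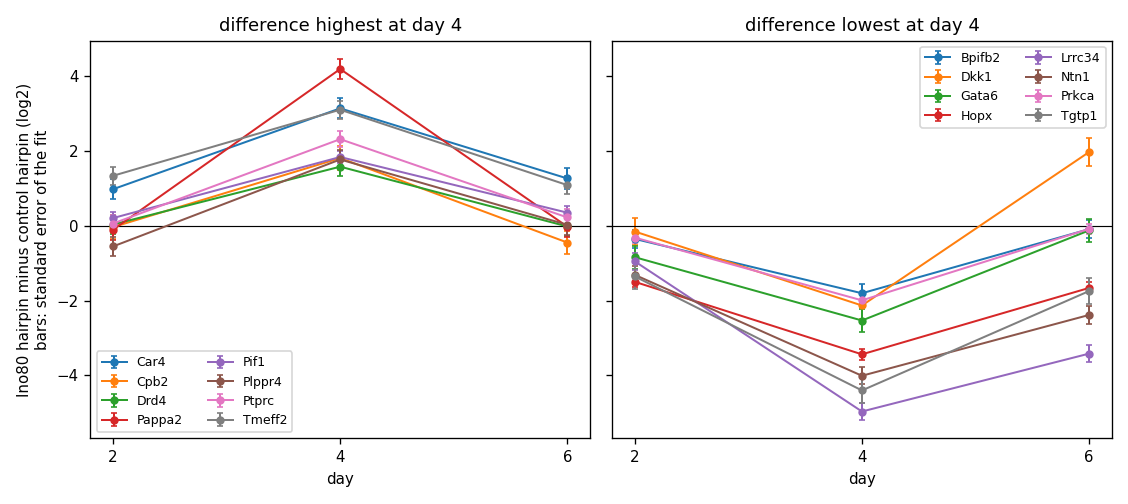
Lines join the log2 difference (shIno80 minus shNT) at days 2, 4 and 6 for 8 named genes highest (left) and 8 lowest (right) at day 4, the leading ones by the smaller of their changes from both other days, with the standard error of the fit as bars. Car4 reaches 3.13 and Lrrc34 -4.96 at day 4, and points of Pappa2, Ptprc, Plppr4, Dkk1, Tgtp1 and Bpifb2 that rest on arrays at background are fitted values without an exact size.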

How the data were processed

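RNA of J1 cells was measured on 12 single-colour Agilent arrays, 2 for each of 6 groups, and the 4 of day 4 are described. The processed intensity is background-subtracted and detrended within each array, per the file headers. The deposited log2 value table equals log2 of the mean spot signal of 1 scanner file plus a constant per array (relative tolerance 1e-06). The choice of that constant is not stated in the labels or file headers. Column medians at day 4 were 7.256 and 7.242 (shNT) and 7.324 and 7.364 (shIno80). The labels name a red dye while the file headers give the green channel.

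Values were log2 processed intensity minus the array's 75th percentile. Control spots and 125 probes with outlier marks were left out of 41174, and 28654 probes well above background on both arrays of a group were kept. The brightest probe stood for a gene. Names came from RefSeq through the accession (23022 probes), the symbol (6556) or an older symbol (3062), and 8409 kept the file's name. A fit on all 12 arrays with 6 group means used limma 3.58.1 in R 4.3.3 (lmFit, eBayes, Benjamini-Hochberg, threshold 0.05), checked on simulated data. It had 6 residual and 2.194 prior degrees of freedom. The number of arrays limits the precision.

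Named genes were Ino80, the largest changes, the largest bounds, the leading members of 55 gene lists with 10 genes kept whatever their call, and the leading genes that stood apart at day 4, which came to 283. The comparison, the lists and the rule were chosen with earlier results of these data known. The alternatives changed scaling, background correction, probe filter, probe averaging, source of values, arrays fitted, replicate block and array attachment, and left out each array in turn. A few named genes are not reported here.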

Additional observations from a re-analysis of the deposited data

Results flagged for a closer look

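The differences between days were tested as interaction terms in the same limma fit. The difference between hairpins at day 4 differed from that at day 2 for 2940 genes, and the difference at day 6 differed from that at day 4 for 727. The values below are changes of the log2 difference, first from day 2 to day 4 and then from day 4 to day 6. Both changes use the same 4 arrays of day 4, so a shift of those arrays enters both with opposite sign. For Pappa2, Ptprc, Plppr4, Dkk1, Tgtp1 and Bpifb2 the changes are fitted values against arrays at background and give no exact size.

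Among genes lowest at day 4, Lrrc34 changed by -4.01 and 1.55, Tgtp1 by -3.05 and 2.65 (with a second probe that did not pass at day 4), Ntn1 by -2.69 and 1.62, and Hopx by -1.94 and 1.77. Gata6 changed by -1.69 and 2.41, Dkk1 by -1.98 and 4.10, and Prkca, a protein kinase C isoform, by -1.68 and 1.91. Bpifb2, a lipid-binding family member, changed by -1.45 and 1.71, with no array of day 6 well above background.

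Among genes highest at day 4, Pappa2 changed by 4.29 and -4.21, Car4 by 2.16 and -1.87, and Tmeff2 by 1.76 and -2.01. Ptprc, the leukocyte antigen CD45, changed by 2.25 and -2.09 and was well above background on the shIno80 arrays of day 4 alone, and its day 4 difference changed sign under plain normexp (-0.09). Pif1, a helicase, changed by 1.63 and -1.49, Cpb2, a carboxypeptidase, by 1.84 and -2.26, and Drd4, a dopamine receptor, by 1.54 and -1.6. Plppr4, a phosphatase-related membrane protein, changed by 2.32 and -1.74 and was well above background on no array of day 2.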

How the results depend on the processing

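With median scaling, quantile normalization, the value table, probe means, the stricter filter or the 4 arrays alone, the counts of 4020 rises and 4088 falls at day 4 stayed within 1.5 times. Plain normexp gave 843 and 855, with 23 and 0 genes in the day comparisons and 0 in both, where no gene passed in the limma fit. Single spots had local backgrounds up to 65377. With such spots set to the array's median background, an alternative chosen after seeing the data, 3833 rose and 4159 fell, and 199 genes differed from both days. With the scanner file attachments 0 genes passed in limma in each count, 166 at day 4 had an unadjusted p below 0.05, and Ino80 stood at 0.16. Without a filter on dim probes 1856, 277 and 42 genes differed from day 2, from day 6 and from both. The cause was not tested.

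Without 1 of the 4 arrays, 2998 to 3270 genes rose, 2931 to 3169 fell, 1476 to 1904 differed from day 2, 200 to 334 from day 6 and 32 to 55 from both.

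Under plain normexp 11 of the 283 named genes changed sign: Afp (-0.12), Dlx3 (-0.07), Hoxd8 (-0.06), Hoxd9 (-0.20), Inha (-0.11), Lum (-0.05), Pax3 (-0.14), Plau (-0.02), Plppr4 (-0.09), Ptprc (-0.09) and T (-0.23). A further 153 no longer passed. Leaving out any array also lost some of the calls among the 283 named genes, not all of which had passed.

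Samples with the same replicate number deviated together with correlations of 0.2958, 0.1173 and 0.08307 on days 2, 4 and 6. The numbers were not taken as pairs in the main fit, although all these correlations were positive. With the replicate number as a block, 4722 rose, 4898 fell, 1327 differed between days 6 and 4 and 285 from both days, and 3 named genes no longer passed.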
